A study of Mus musculus with 8 samples.

Results

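Expression of 40 cell cycle and proliferation genes was examined in the pancreata of 8 NOD mice. The genes were chosen by name from textbook roles in DNA replication and division, with earlier results of these data known. They were found among the 21597 genes with a symbol on the array under their current or older symbols (*Cdc2a* is the older symbol of *Cdk1*). They comprised 15 genes of the G1/S transition and S phase, 22 genes of G2 and mitosis, and 3 D-type cyclins, measured by 63 probes. All 40 genes were on the array.

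A dividing cell first induces D-type cyclins, which free E2F transcription factors to switch on cyclin E, the MCM helicase that unwinds replication origins, and the enzymes that make deoxynucleotides. Cyclin A, cyclin B and the kinase CDK1 then drive the cell into mitosis, where Aurora and Polo-like kinases, the spindle checkpoint and kinesins segregate the chromosomes, and CDC20 with the anaphase promoting complex ends the division. Most cells of an adult pancreas are out of the cycle, whereas activated lymphocytes divide rapidly, and NOD islets are infiltrated by lymphocytes at this age.

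Each array compared pancreas RNA of 1 individual female NOD mouse (red, Cy5) with 1 pool of pancreas RNA from 8 NOD.B10 mice (green, Cy3). All animals were 12 weeks old and untreated. NOD.B10 mice share the NOD background, carry the H2 region of the B10 strain and do not become diabetic. The 8 NOD mice form 1 group (n = 8) and the pool has no replicates of its own, so the test asks whether NOD mice differed from this pool. The dyes were never exchanged, and a dye effect at a probe cannot be told apart from a strain difference. In whole tissue, fewer cells of a type and less RNA per cell cannot be told apart.

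The arrays came on 2 slides, with mice 1 to 4 on slide 1 and mice 5 to 8 on slide 2, and the grids of mice 5, 6 and 7 were not rated good by the scanning software. A signal that the software rated well above background is called detected below, and a gene is called measured where the NOD (red) signal was detected on 4 or more arrays. Red was detected at 21.6% to 35.3% of the spots of an array and green at 57.6% to 60.7%. Stand-in values, which the software writes for weak signals, made up 42.9% to 54% of red and 18.2% to 23.4% of green spots. All 11 acinar marker genes on the array were measured.

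Promoters are shown first because the E2F and CHR motifs are known for genes of S phase and of mitosis, respectively. Of the 40 members, 30 had an entry in the RefSeq promoter table (GRCm38.p6, 250 bases before to 50 after the start). *Ccne2*, *Mcm4*, *Ccna2*, *Cdc25c*, *Aurkb*, *Kif20a*, *Tpx2*, *Foxm1*, *Ccnd1* and *Ccnd2* had none. Searches on both strands covered the E2F sites TTTCGCGC, TTTGGCGC, TTTCCCGC and TTTGCCGC, the cell cycle homology region (CHR) elements TTTGAA and TTCGAA, and the CCAAT box. Below are the 200 bases upstream of the start of 4 mitotic genes and 2 MCM genes, 5′ to 3′ on the strand of the gene, with the matched motifs in capitals on whichever strand they lie. The counts after them refer to the whole window of 300 bases, on both strands.

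Mki67, chr7:135716380-135716579, minus strand: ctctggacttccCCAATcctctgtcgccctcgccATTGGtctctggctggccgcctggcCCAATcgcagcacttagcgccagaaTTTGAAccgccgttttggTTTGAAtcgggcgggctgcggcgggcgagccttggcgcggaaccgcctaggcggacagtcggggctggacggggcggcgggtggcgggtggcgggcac
Cdc20, chr4:118437344-118437543, minus strand: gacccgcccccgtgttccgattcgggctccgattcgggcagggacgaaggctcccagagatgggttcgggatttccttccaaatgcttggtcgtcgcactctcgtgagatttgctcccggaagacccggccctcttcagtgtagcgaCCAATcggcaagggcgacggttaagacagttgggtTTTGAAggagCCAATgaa
Ccnb2, chr9:70421555-70421754, minus strand: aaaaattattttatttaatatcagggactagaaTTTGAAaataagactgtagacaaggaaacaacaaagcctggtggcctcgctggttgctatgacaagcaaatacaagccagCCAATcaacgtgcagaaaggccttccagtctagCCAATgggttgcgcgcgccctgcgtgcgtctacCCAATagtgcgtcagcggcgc
Cdc2a (Cdk1), chr10:69352913-69353112, minus strand: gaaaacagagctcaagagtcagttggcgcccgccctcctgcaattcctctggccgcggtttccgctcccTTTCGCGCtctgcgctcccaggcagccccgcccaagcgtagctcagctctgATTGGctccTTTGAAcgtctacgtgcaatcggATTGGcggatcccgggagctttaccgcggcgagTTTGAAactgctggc
Mcm5, chr8:75109309-75109508, plus strand: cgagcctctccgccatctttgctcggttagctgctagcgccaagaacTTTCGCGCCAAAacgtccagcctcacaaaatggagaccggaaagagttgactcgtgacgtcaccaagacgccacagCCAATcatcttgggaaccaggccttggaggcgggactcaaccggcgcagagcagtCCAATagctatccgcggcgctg
Mcm6, chr1:128359706-128359905, minus strand: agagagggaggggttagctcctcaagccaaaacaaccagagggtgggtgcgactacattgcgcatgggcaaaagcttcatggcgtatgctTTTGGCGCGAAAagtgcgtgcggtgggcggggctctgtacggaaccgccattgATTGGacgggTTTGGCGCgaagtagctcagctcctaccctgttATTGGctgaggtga

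The mitotic promoters carried CHR and CCAAT motifs together. A CHR element was found in 12 of 16 mitotic promoters (75%), in 2 of 13 S phase promoters (15.4%) and in 21.7% of all 27025 gene promoters. The pair of CHR and CCAAT was held by 11 of 16 mitotic promoters, compared with 2 of 13 S phase promoters (*Mcm2* and *Mcm7*) and 8.61% of all promoters. E2F sites showed the opposite distribution, in 5 of 13 S phase promoters (*Cdc6*, *Mcm3*, *Mcm5*, *Mcm6* and *Mcm7*), 1 of 16 mitotic promoters (*Cdc2a*) and 2.60% of all promoters. In *Mcm5* a TTTCGCGC on the strand shown overlaps a TTTGGCGC on the other, and *Mcm6* holds the same overlapping pair in reverse plus a separate TTTGGCGC. These matches are letters in a window and were not tested for binding.

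Few of the cell cycle genes passed the test against the pool. A gene was called when its mean differed at least 2-fold from the pool with an adjusted p under 0.01 in limma, fitted over all 28105 tested probes, and each gene was read at its brightest probe. Of the 38 members that could be tested, 0 were called higher and 1 was called lower (*Foxm1*), while 0.391% and 1.3% of all 18396 tested genes were called higher and lower. *Ccne2* and *Kif11* were too weak in red to be tested. At an adjusted p under 0.05 of any size, 2 members were higher (*Mcm5* and *Ccnd1*) and 3 were lower (*Tyms*, *Prc1* and *Foxm1*), where 7.01% and 14.4% of all tested genes passed in each direction. The 2 of 38 higher and 3 of 38 lower do not exceed these shares. An unadjusted p under 0.05 was reached by 9 members and by 36% of all tested genes. Among the 19 measured members, 0 were called, 2 were higher and 1 was lower past adjusted p 0.05, while 0.576% and 0.21% of all 9542 measured genes were called higher and lower and 12.7% and 14.8% passed.

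The median log2 ratio over the 40 members was -0.10, beside -0.08 over all tested genes. It was 0.06 for the S phase members, -0.20 for the mitotic members and 0.10 for the D cyclins, and for the measured members alone 0.17 for S phase and -0.49 for the mitotic genes, which became -0.055 and -0.83 when background-subtracted signals were centered on the median of each array (median-centering below) and -0.018 and -0.17 after normexp background correction with loess (normexp below). For the D cyclins, all 3 of them measured, the median went to -0.10 after median-centering and -0.037 after normexp. Mean ratios were above 0 for 15 members and below 0 for 24, and *Cdc6* was listed at exactly 0 in all 8 mice. Among the mitotic genes 18 of 22 means were below 0, and among the S phase genes 6 of 15. None of these medians was tested.

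**Figure D1:**
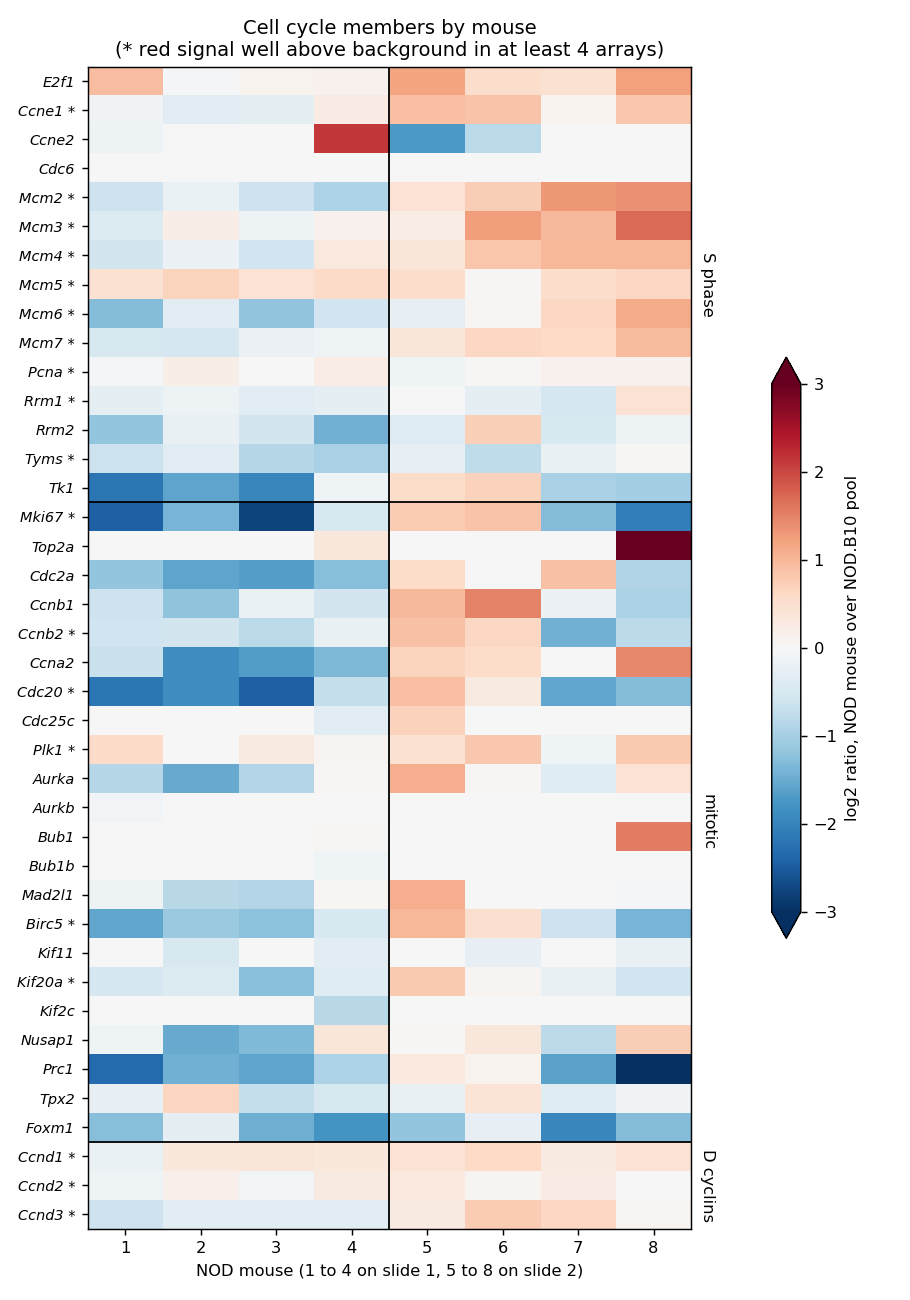
Log2 ratio of each NOD mouse over the NOD.B10 pool for the 40 members at their brightest probe (rows) in the 8 mice (columns), with the color scale running from -3 to 3. The mitotic rows are mostly blue in mice 1 to 3 and red in mouse 5, the rows of the MCM subunits other than *Mcm5* are higher on slide 2 than on slide 1, and several rows are white because the deposited ratio is exactly 0.

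Detection differed among the members and among probes of 1 gene. Green signal, that of the pool, was detected on all 8 arrays for 29 of 40 members. The 19 measured members were 10 S phase genes, 6 mitotic genes and all 3 D cyclins. At 16 members red was never detected, and 13 of these were mitotic. Over the array as a whole, 44.2% of genes were measured. The 19 measured members are described first in each role, apart from *Tyms*, which follows *Rrm2*. Values of the others rest on weak or stand-in red signals.

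D-type cyclins, which pair with CDK4 and CDK6 and carry growth signals into the cycle, had a lower median SD (0.23) than the S phase or mitotic members. This median covers 3 genes and was not tested, and the *Ccnd1* probe was averaged over 10 spots. *Ccnd1* (probe at chr7:144739658-144739717, mm8) ranged from a log2 ratio of -0.19 to 0.60 with a median of 0.34, or 126% of the pool. It was higher in 7 of 8 mice, and mouse 1 was the exception. The mean was 0.32 ± 0.23 (SD, n = 8; limma adjusted p = 0.0292, exact two-sided sign-flip permutation p = 0.0156). Any 1 of mice 2 to 8 left out moved its adjusted p to between 0.0563 and 0.0663, with the mean between 0.28 and 0.33, and without the arrays of mice 5, 6 and 7 it was 0.210. Without mouse 1 the adjusted p was 0.00408. The mean of *Ccnd1* was 0.16 after median-centering (limma adjusted p = 0.471) and 0.095 after normexp (limma adjusted p = 0.0483).

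*Ccnd2* was read by 3 measured probes, whose means were above 0 in the deposited ratios and below 0 after either of these 2 other normalizations. The brightest lay between -0.14 and 0.30 with a median of 0.11, and its mean of 0.10 ± 0.17 (SD, n = 8) did not pass (limma adjusted p = 0.268). The other probes had means of 0.24 ± 0.14 and 0.45 ± 0.21 (limma adjusted p = 0.0143 and 0.00643) and were above 0 in all 8 mice, but went to -0.20 and -0.43 after median-centering and to -0.20 and -0.28 after normexp. The brightest probe went to -0.73 and -0.51. *Ccnd3* ranged from -0.61 to 0.75 with a median of -0.12, and its mean was 0.02 ± 0.49 (SD, n = 8; limma adjusted p = 0.992). All 4 mice of slide 1 were below 0 for *Ccnd3* and all 4 of slide 2 were above it.

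At the G1/S transition, cyclin E1 was measured and E2F1 and cyclin E2 were weak. *Ccne1*, the cyclin that starts S phase with CDK2, ranged from -0.33 to 0.90 with a median of 0.18, and averaged 0.28 ± 0.52 (SD, n = 8; limma adjusted p = 0.319). *E2f1*, the activating transcription factor, averaged 0.56 ± 0.50 at its brightest probe (limma adjusted p = 0.0539, 7 of 8 mice higher), with red detected on 0 arrays. Its other probe gave -0.93 ± 0.63 (limma adjusted p = 0.0211, 0 of 8 mice higher), so the direction for *E2f1* depended on the probe. *Ccne1* showed the same split, since its second probe, a stand-in in red on 7 arrays, averaged -0.61 ± 0.54 (SD, n = 8). *Ccne2* and the licensing factor *Cdc6* carried red stand-in values on 7 and 8 arrays and give no usable ratio.

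Among the 6 subunits of the MCM helicase, *Mcm5* alone passed the test. *Mcm5* (probe at chr8:78023523-78023583, mm8) was higher in 8 of 8 mice, from 0.05 in mouse 6 to 0.67 in mouse 2, with a median of 0.53 or 144% of the pool. Its mean was 0.48 ± 0.19 (SD, n = 8; limma adjusted p = 0.00371, exact sign-flip permutation p = 0.00781, the smallest that sign flips of 8 arrays can give). It is a bright probe, with red signals of 1785 to 6803 and green signals of 1307 to 4602 units. The higher level of *Mcm5* was lost under both other normalizations, with means of 0.06 after median-centering and -0.02 after normexp (limma adjusted p = 0.831 and 0.947, against 0.00111 to 0.0135 in the other 15 alternatives).

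The other 5 MCM subunits varied with the slide. *Mcm6* ranged from -1.31 to 1.12 with a median of -0.28, and averaged -0.85 on slide 1 and 0.39 on slide 2. *Mcm2* ranged from -0.93 to 1.36 with a median of 0.11, *Mcm3* from -0.41 to 1.69 with a median of 0.20, *Mcm4* from -0.56 to 1.00 with a median of 0.33, and *Mcm7* from -0.50 to 0.95 with a median of 0.11. On slides 1 and 2, *Mcm2* averaged -0.59 and 0.95, *Mcm3* -0.06 and 1.03, *Mcm4* -0.25 and 0.79, and *Mcm7* -0.32 and 0.63. In each of these 5 genes every mouse of slide 2 lay above every mouse of slide 1, which held for 14.4% of all tested genes in either direction and for 21.6% of the measured genes.

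The slide contrast over all tested probes passed limma adjusted p 0.05 for *Mcm2* (0.0321) and *Mcm7* (0.0292), while 3.87% of all tested genes and 6.2% of the measured genes passed it. For the others it was 0.0721 for *Mcm4*, 0.131 for *Mcm3* and 0.131 for *Mcm6*. Exact permutation of 4 against 4 arrays gave 0.0286 for each of the 5, the smallest p that 70 arrangements allow, and 0.143 after Benjamini-Hochberg adjustment over the 40 members. Averaged over both slides, none of the 5 subunits differed from the pool past adjusted p 0.05 (limma adjusted p from 0.215 for *Mcm3* to 0.716 for *Mcm2*), with means from -0.23 to 0.48.

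The median over the 6 MCM subunits was -0.50, -0.20, -0.37 and -0.00 in mice 1 to 4 and 0.36, 0.69, 0.79 and 1.05 in mice 5 to 8. The ranges of the 2 slides did not overlap in these medians, nor after median-centering (-0.56 to 0.01 and 0.09 to 1.08) or normexp with loess (-0.20 to -0.05 and 0.00 to 0.31), where 3 and 2 of the 6 genes had slides that did not overlap, as did 31.4% and 23.6% of all measured genes. The same pool was labeled for all arrays, and in the 5 subunits the green log2 signal moved by a median of -0.06 from slide 1 to slide 2 while the red moved by 1.08. *Mcm5* differed, its green signal rising by 0.69 and its red by 0.60. In the lists of cell type markers, slide 2 means were above slide 1 means in 10 of 11 acinar, 6 of 10 beta cell, 8 of 8 adipocyte, 5 of 14 T cell and 2 of 13 myeloid genes, and their part was not tested. A difference between the slides and a difference between the mice on them cannot be told apart.

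**Figure D2:**
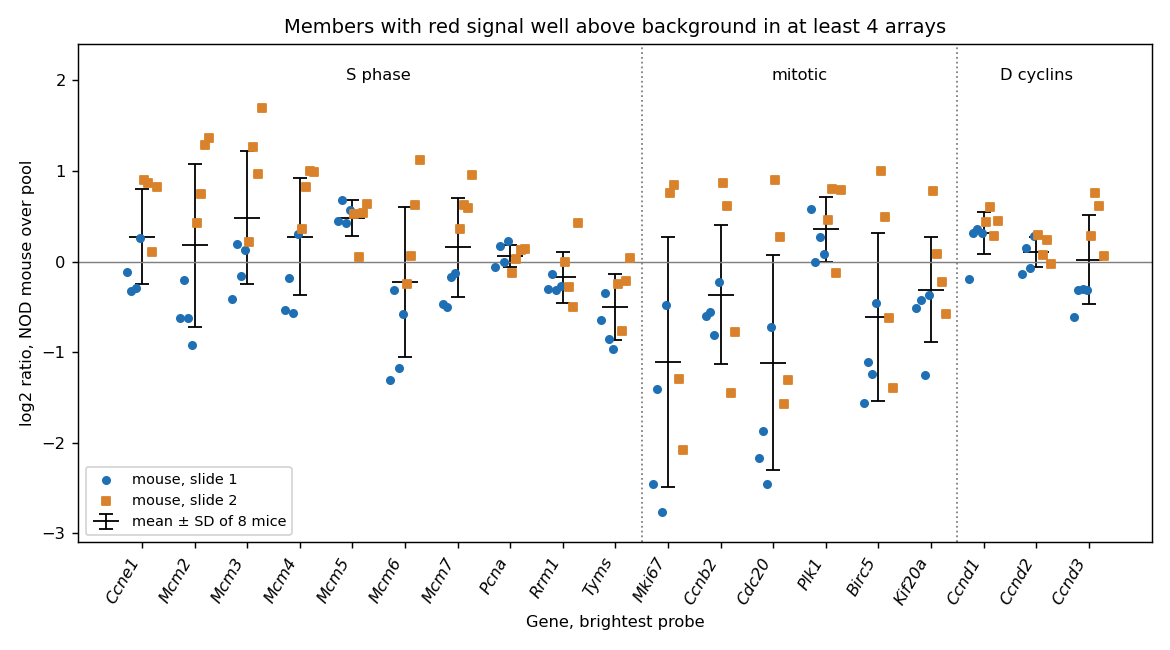
Log2 ratio over the pool in each of the 8 mice for the 19 measured members, with the mean ± SD in black, slide 1 as circles and slide 2 as squares. *Mcm2*, *Mcm3*, *Mcm4*, *Mcm6* and *Mcm7* separate by slide, *Mcm5* and *Pcna* are tight, and *Mki67* and *Cdc20* spread over more than 3 log2 units.

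The fork clamp and the enzymes of deoxynucleotide supply make up the rest of the S phase members. *Pcna*, the sliding clamp of DNA polymerase, stayed within -0.13 and 0.22 in all 8 mice with a median of 0.08, and its mean of 0.06 ± 0.12 (SD, n = 8) did not pass (limma adjusted p = 0.377). *Pcna* had a narrow range while the MCM subunits moved by up to 2.43 log2 units between mice. The *Pcna* value was the mean of 10 spots on each array, whereas each MCM probe had 1 spot. The part of this averaging in the narrow range was not tested. *Rrm1*, the large subunit of ribonucleotide reductase, averaged -0.17 ± 0.28 (limma adjusted p = 0.245) and was lower in 7 of 8 mice, and it passed lower under both other normalizations (-0.72 after median-centering and -0.20 after normexp, limma adjusted p = 0.0254 and 0.0379), with a range of 0.0254 to 0.575 over all alternatives at this probe. *Rrm2*, its small S phase subunit, was not among the measured members, with red detected on 3 arrays. *Rrm2* averaged -0.46 ± 0.66 (limma adjusted p = 0.191) and was also lower in 7 of 8, but its mean was above 0 after median-centering (0.059) and normexp (0.028).

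*Tyms*, thymidylate synthase, was lower in NOD mice. At its brightest probe (chr5:30391852-30391911, mm8) it ranged from -0.97 to 0.04 with a median of -0.50, or 70.9% of the pool, and only mouse 8 was above 0. The mean was -0.50 ± 0.36 (SD, n = 8; limma adjusted p = 0.0271, exact sign-flip permutation p = 0.0156), and a second probe gave -0.72 ± 0.30 (limma adjusted p = 0.00398) with 0 of 8 mice higher. The weakest of its 3 probes gave -0.43 ± 0.77 (limma adjusted p = 0.296).

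Of the 5 members that passed, *Tyms* was the 1 that also passed under both other normalizations (-0.94 after median-centering and -0.43 after normexp, limma adjusted p = 0.0023 and 0.0174). Leaving out mouse 1, 2, 3, 4 or 6 moved its adjusted p to between 0.0509 and 0.0643, leaving out the arrays of mice 5, 6 and 7 moved it to 0.112, and that was the highest over all alternatives. *Tk1*, the salvage thymidine kinase, ranged from -2.16 to 0.69 with a median of -0.99 and did not pass (limma adjusted p = 0.163), with red detected on 1 array.

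Among the measured mitotic genes, some spread widely between mice. The proliferation marker *Mki67* was measured at red signals of 80.2, 189, 73.3, 343, 759, 1010, 192 and 97.0 units in mice 1 to 8, while the pool stayed between 410 and 562 units. Mice 5 and 6 were above the pool and the other 6 were below it, 5 of them by more than 1 log2 unit. Red was detected on 5 of the 8 arrays, so weak red signals enter the lowest ratios. Log2 ratios ran from -2.77 in mouse 3 to 0.85 in mouse 6 with a median of -1.35, or 39.1% of the pool, and the mean of -1.11 ± 1.38 (SD, n = 8) did not pass (limma adjusted p = 0.137). A second probe gave almost the same mean, -1.10 ± 1.03 (limma adjusted p = 0.0623), with red detected on 1 array and mouse 5 at -0.06 and mouse 6 at 0.49. The *Mki67* mean was -0.78 after median-centering and -0.053 after normexp (limma adjusted p = 0.139 and 0.855), and its adjusted p ranged from 0.0507 to 0.855 over all alternatives.

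*Cdc20*, the activator of the anaphase promoting complex, was likewise above the pool in mice 5 and 6 alone, with red signals of 148, 225, 147, 483, 1185, 1130, 231 and 237 units against 588 to 936 units in the pool. Its log2 ratios ran from -2.45 to 0.89 with a median of -1.44, and the mean was -1.12 ± 1.19 (SD, n = 8; limma adjusted p = 0.0902, 6 of 8 mice lower). It passed lower under both other normalizations (-1.54 and -0.38, limma adjusted p = 0.00128 and 0.0483), with a range of 0.00128 to 0.183 over all alternatives. *Birc5*, the survivin subunit of the chromosomal passenger complex, ran from -1.56 to 1.00 with a median of -0.87 (mean -0.61 ± 0.93, limma adjusted p = 0.213), and passed lower under both other normalizations (-1.11 and -0.30, limma adjusted p = 0.00378 and 0.0369), with a range of 0.00378 to 0.377 over all alternatives. *Ccnb2*, a mitotic cyclin, ran from -1.45 to 0.87 with a median of -0.58 (mean -0.37 ± 0.77, limma adjusted p = 0.366). In all 3 genes, mice 5 and 6 were above the pool and the other 6 below it. Red was detected on 4 arrays for *Cdc20*, 5 for *Birc5* and 6 for *Ccnb2*.

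*Kif20a*, a kinesin of cytokinesis, averaged -0.31 ± 0.58 and -0.12 ± 0.58 at its 2 probes (limma adjusted p = 0.313 and 0.694). *Plk1*, the Polo-like kinase of mitotic entry, stood apart, with values from -0.13 to 0.80, a median of 0.37 and an average of 0.36 ± 0.36 (SD, n = 8; limma adjusted p = 0.0781, 6 of 8 mice higher). *Plk1* was the 1 measured mitotic member of 6 with a mean above 0 in the deposited ratios, and it went to -0.31 after median-centering and -0.08 after normexp.

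Over the 6 measured mitotic members, mice 5 and 6, named after their values were seen, were both above the pool in 6 of 6 genes. They were the highest 2 mice in 5 of 6. These genes passed a filter on the NOD signal, which high values in mice 5 and 6 help to pass, so the counts are no test. Over all 22 mitotic members the median was 0.50 in mouse 5, 0.06 in mouse 6 and -0.84 to -0.08 in the other mice. The median of the 6 genes was -1.08, -0.83, -1.25 and -0.41 in mice 1 to 4 and 0.82, 0.55, -0.96 and -1.04 in mice 5 to 8. Mouse 8, the highest for the MCM subunits, was at -1.04 here, and at -1.27 after median-centering and -0.25 after normexp, where 4 mice were lower. Mouse 5 remained the highest under median-centered signals (0.51) and normexp with loess (0.17), but mouse 6 fell to -0.80 and -0.32. The position of mouse 6 therefore depended on the normalization.

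**Figure D3:**
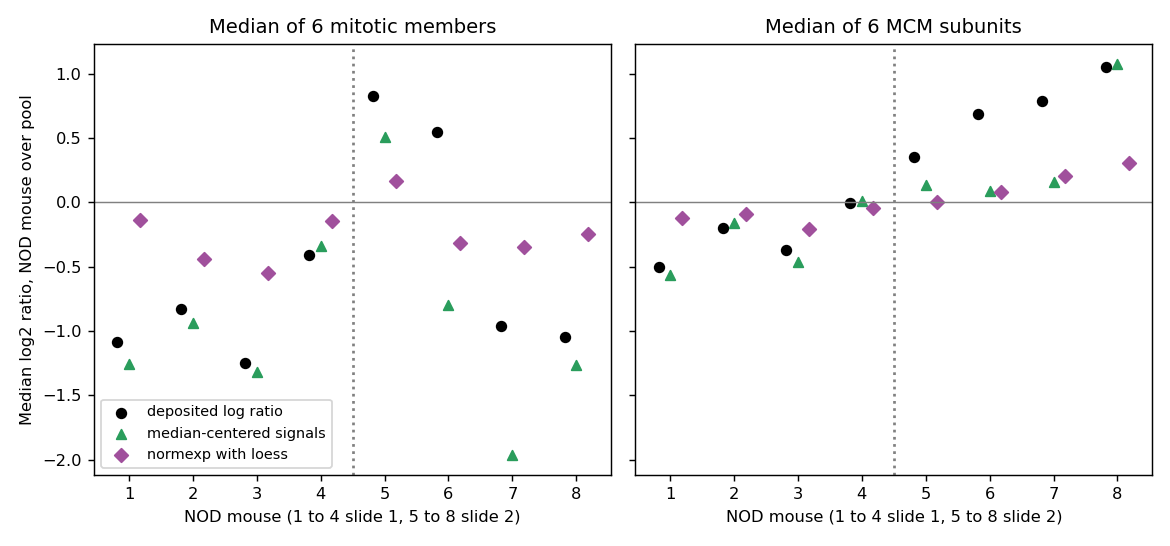
Median log2 ratio over the pool of the 6 measured mitotic members (left) and the 6 MCM subunits (right) in each mouse, from the deposited ratios (circles) and after 2 other normalizations (triangles and diamonds). Mouse 5 lies highest for the mitotic genes in each, mouse 6 only in the deposited ratios reaches 0.55, and the MCM medians of slide 2 lie above those of slide 1 in each.

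The spread between arrays was larger in red, where each array held another mouse, than in green, where all held the same pool. For the 6 measured mitotic members the SD of the log2 red signal over the arrays had a median of 0.94, compared with 0.22 for green, and was the larger in 6 of 6. For all 19 measured members these medians were 0.62 and 0.21, and red was the larger in 17. The design alone can give a larger red SD, and its share over all genes was not counted. The median SD of the log2 ratio was 0.85 for these genes, 0.53 for the measured S phase genes, 0.23 for the D cyclins and 0.30 over all measured genes. Mice 5 and 6 were both on arrays whose grid was not rated good, as was mouse 7, and the part of array quality in their values was not tested.

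**Figure D4:**
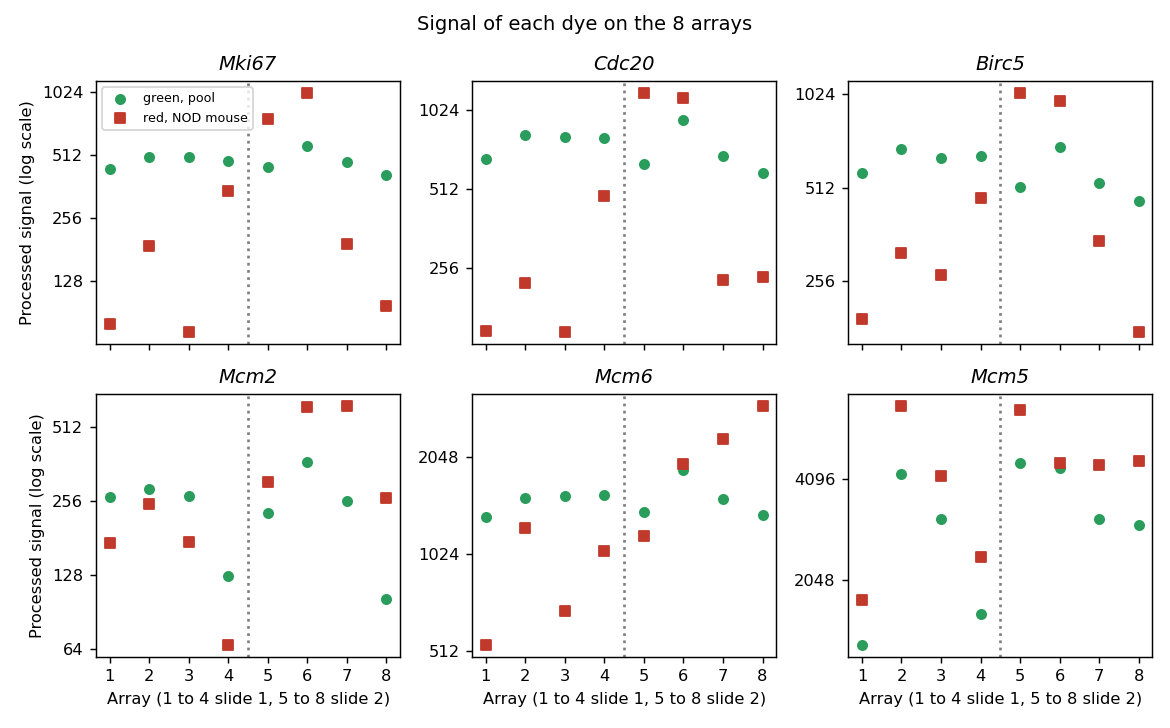
Processed signal of each dye on the 8 arrays, on a log scale, for 3 mitotic genes (top) and 3 MCM subunits (bottom). The pool (green) is nearly level for *Mki67*, *Cdc20*, *Birc5* and *Mcm6* while the NOD signal (red) moves, and for *Mcm5* both dyes move together.

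Leaving out the arrays of mice 5, 6 and 7, an alternative chosen after the values were seen, raised the number of lower mitotic members. Then 6 members passed adjusted p 0.05 lower (*Cdc2a*, *Ccnb2*, *Cdc20*, *Birc5*, *Prc1* and *Foxm1*) and 1 higher (*Mcm5*), compared with 3 and 2 in all 8 mice, and 0 were called by the 2-fold rule. Of all 18396 tested genes, 4.5% passed higher and 7.45% lower in these 5 mice, and 0.0163% and 0.125% were called higher and lower. *Cdc20* averaged -1.71 and *Birc5* -1.15 in the other 5 mice (limma adjusted p = 0.0345 and 0.0293). These arrays include both mice with high mitotic signal, so array quality and mouse cannot be told apart here.

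The remaining mitotic members were near the detection limit in NOD pancreas, and some of them also in the pool. *Prc1*, which bundles microtubules at the central spindle, was lower at its probe (chr7:80189665-80189717, mm8), from -3.03 in mouse 8 to 0.29 in mouse 5 with a median of -1.51 and an average of -1.31 ± 1.13 (SD, n = 8; limma adjusted p = 0.0476, exact sign-flip permutation p = 0.0312, 6 of 8 mice lower). Red was detected on 2 arrays, and *Prc1* passed in 5 of 17 alternatives. Its mean was -0.80 after median-centering and -0.078 after normexp (limma adjusted p = 0.075 and 0.507).

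*Foxm1*, the transcription factor of G2 and M genes, was the 1 called member. Its ratios at the probe chr6:128340384-128340443 (mm8) ran from -1.96 to -0.25 with a median of -1.29, and 8 of 8 mice were lower. The mean was -1.19 ± 0.63 (SD, n = 8; limma adjusted p = 0.00862, exact sign-flip permutation p = 0.00781). The signals were low, at 20 to 70.1 units in red and 71.2 to 93 in green, and red was a stand-in on 5 arrays and detected on 0, so the size of the difference depends on the stand-in values. After normexp with loess the *Foxm1* mean was 0.03 (limma adjusted p = 0.642), after median-centering -0.43 (limma adjusted p = 0.111), and it passed adjusted p 0.05 in 14 of 17 alternatives. The 2-fold call itself was lost when any of mice 1, 3, 4, 5, 7 and 8 was left out, with adjusted p from 0.0193 to 0.0257.

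*Cdc2a* (*Cdk1*), the kinase of mitotic entry, had means of -1.42 on slide 1 and 0.13 on slide 2 with no overlap (limma slide adjusted p = 0.0889), and its overall mean of -0.65 ± 0.99 did not pass (limma adjusted p = 0.215). A second *Cdc2a* probe went the other way between slides (-0.43 and -0.86), and red was detected on 0 arrays at both. *Ccna2*, the cyclin of S phase and G2, showed the widest slide gap of the 40, from -1.39 to 0.67 with no overlap (limma slide adjusted p = 0.0406), with red detected on 0 arrays. Among the 19 measured members, slide 2 was above slide 1 in 17 (6 of 6 mitotic), whereas 49.5% of all tested genes and 47.7% of the measured genes were higher on slide 2. The slide contrast passed for 3 members (*Mcm2*, *Mcm7* and *Ccna2*).

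Other weak mitotic genes did not pass. *Ccnb1* averaged -0.16 ± 0.93, *Aurka*, a kinase of the spindle poles, -0.25 ± 0.83, *Nusap1*, a spindle protein, -0.29 ± 0.83, and *Tpx2*, the activator of Aurora A, -0.13 ± 0.45 (SD, n = 8 each; limma adjusted p from 0.503 to 0.772). *Mad2l1*, a spindle checkpoint protein, averaged -0.09 ± 0.61 at its brighter probe (limma adjusted p = 0.801) and -1.07 ± 0.60 at the other (limma adjusted p = 0.0115), with red stand-ins on 6 and 5 arrays. *Aurkb*, *Bub1*, *Bub1b*, *Kif2c*, *Top2a*, *Cdc25c* and *Kif11* had red stand-ins on 6 to 8 arrays and deposited ratios of exactly 0 on 4 to 7. Green was detected on 0 to 2 arrays for these genes, so their levels were not measurable at this sensitivity in the NOD mice or in the pool. For *Top2a*, the topoisomerase that untangles replicated DNA, all 3 probes had red stand-ins on 6 or 7 arrays.

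**Figure D5:**
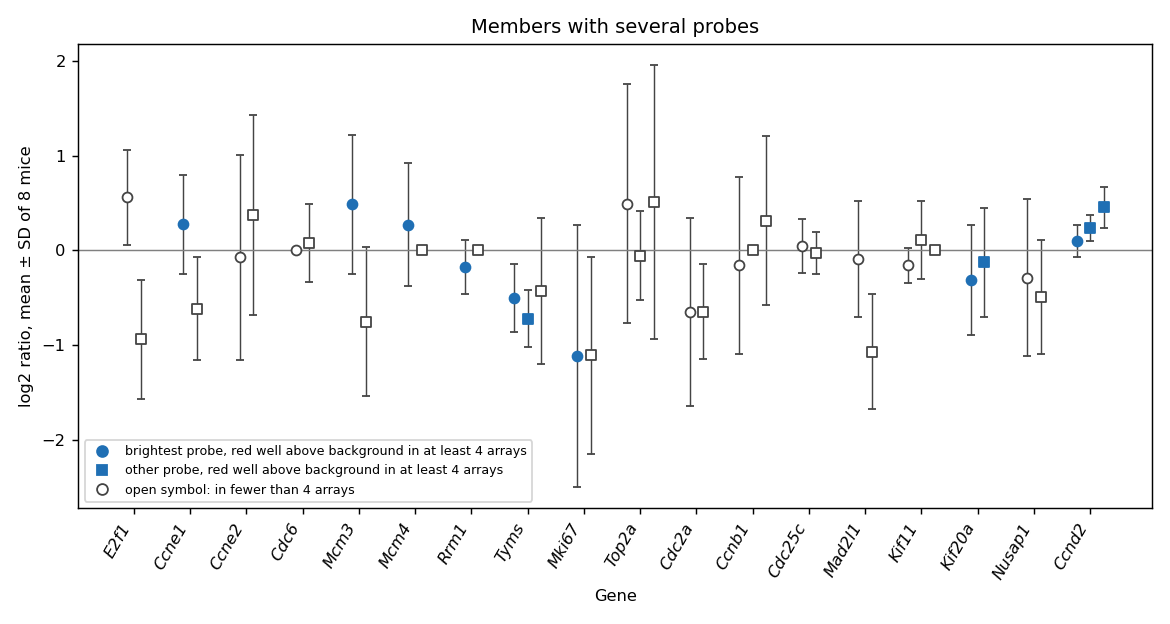
Mean ± SD of the log2 ratio over 8 mice for each probe of the 18 members with several probes, filled where the probe was measured. Filled probes of one gene lie on the same side of 0 (*Tyms*, *Kif20a* and *Ccnd2*), whereas second probes of *E2f1*, *Ccne1* and *Mcm3* lie on the other side of 0 from the brightest probe.

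In the 3 genes with several measured probes the deposited means had 1 sign, whereas *Mcm3* had 0.48 ± 0.74 at the bright probe and -0.75 ± 0.78 at another with red detected on 1 array (limma adjusted p = 0.215 and 0.0856). For 22 members there was 1 probe.

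Cell cycle genes outside the 40 were examined in 9 lists of 157 genes, of which 151 could be tested. In all, 7 were higher and 29 lower past adjusted p 0.05, with a median log2 ratio of -0.22, compared with -0.08 over all tested genes. Called by the 2-fold rule were 1 higher and 3 lower, beside 0.391% and 1.3% of all tested genes. The 7 of 151 higher stand beside 7.01% and the 29 of 151 lower beside 14.4% of all tested genes, and these differences were not tested, and 68 of the 157 were measured. The 36 that passed had a median size of 0.60 on the log2 scale, 0.64 after median-centering and 0.15 after normexp, with the sign changed in 3 under each (*Cdkn2a*, *Cdc7* and *Cenpm* after median-centering, and *Cdkn2b*, *Nek2* and *Anapc13* after normexp).

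Regulators of CDK activity moved in both directions. *Cdc25b*, a phosphatase that activates CDKs, was the 1 called higher, at 1.02 ± 0.51 (SD, n = 8; limma adjusted p = 0.00758) in 8 of 8 mice (1.23 after median-centering and 0.25 after normexp), and *Cdk6*, the partner of D cyclins, was higher at 0.52 ± 0.21 (limma adjusted p = 0.0036). In the same list of 13 genes, 4 were lower, led by *Cks2* (-0.87), *Pkmyt1* (-0.78) and *Cdk7* (-0.58), with red detected on 4, 0 and 4 arrays. Of 7 CDK inhibitors, 3 were lower and 0 higher, namely *Cdkn2b* (-1.34), *Cdkn1b* (-0.69) and *Cdkn2a* (-0.22), with red detected on 0 to 2 arrays. *Cdkn1a*, named after its values were seen, averaged 1.67 on slide 1 and -1.35 on slide 2 with no overlap, the opposite direction to the MCM subunits and a wider gap than that of any member. In the Rb and E2F family, *Tfdp1*, the dimer partner of E2F, was higher (0.39), and *E2f6* (-0.46) and *Rb1* (-0.34) were lower.

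In the lists of DNA replication, the kinetochore, chromosome structure and the spindle, most genes did not pass, and the counts stand beside 14.4% lower and 7.01% higher of all tested genes. Of 16 tested genes of origin licensing and firing, 5 were lower and 0 higher, led by *Gins1* (-1.58), *Gins3* (-1.18) and *Cdc7* (-0.70), all with red detected on 0 arrays. Of 26 polymerase and fork genes, 2 were lower and 0 higher, among them the clamp loader subunit *Rfc2*, detected in red on all 8 arrays (-0.50 ± 0.29, limma adjusted p = 0.0123). Of 23 tested kinetochore and checkpoint genes, 6 were lower and 0 higher, led by *Cenpk* (-1.13), *Mad1l1* (-1.04) and *Cenpe* (-0.82), with red detected on 0, 2 and 2 arrays, so that stand-in or weak red signals enter these sizes.

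Of 13 tested cohesin and condensin genes, 2 were lower (*Ncapg2*, -1.32, with red detected on 0 arrays, and *Ncaph2*, -0.55, on all 8), and of 25 spindle and cytokinesis genes 3 were lower (*Melk*, -0.93, *Nek2*, -0.83, and *Kif4*, -0.37, with red detected on 0 arrays for all 3) and 1 higher (*Spag5*, 0.31). The anaphase promoting complex, whose genes are also used outside division, was measured for 13 of 14 genes and split, with 3 higher (*Anapc11*, 0.50, *Fzr1*, 0.33, and *Cdc16*, 0.10) and 2 lower (*Anapc1*, -0.46, and *Anapc13*, -0.28).

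Markers of other cell types were read in the same mice, where 7.01% of all tested genes passed higher and 14.4% lower. Of 14 T cell genes, 5 were higher past limma adjusted p 0.05 and 0 lower, and their median log2 ratio per mouse ranged from 0.11 to 0.95, with 0.42 in mouse 5 and 0.24 in mouse 6. Their summed red signal was 6077 to 19625 units (6092 in mouse 5 and 19625 in mouse 6) beside 4604 to 10914 for the pool, and *Cd247*, *Cd2* and *Lat* were never detected in red. Of 12 B cell genes 0 passed and 9 were never detected in red. Their medians per mouse ran from -0.11 to 1.20, with -0.04 in mouse 5 and 0.40 in mouse 6. Their summed red signal was 1652 to 5009 units beside 1779 to 2444 for the pool. The 3 measured B cell genes had means above 0 that did not pass, namely *Cd79b* (1.18 ± 1.39), *Ms4a1* (1.01 ± 1.51) and *Blnk* (0.15 ± 0.28, SD, n = 8 each). Their limma adjusted p was 0.120, 0.206 and 0.321, and *Cd79b* and *Ms4a1* were each higher in 6 of 8 mice. Germinal centre B cell genes, which mark a dividing population, had 1 gene higher and 1 lower of 8 tested and medians per mouse from -0.30 to 0.23, with -0.23 in mouse 5 and -0.24 in mouse 6, and 3 of 9 were never detected in red. Of 13 myeloid genes 3 were higher and 0 lower, and of 11 acinar genes 2 were higher and 0 lower. Of 4 tested plasma cell genes 2 were higher and 0 lower, and of 9 duct and 8 adipocyte genes 1 each was lower and 0 higher, with a median over the adipocyte genes of -0.79. Of 9 tested beta cell genes 2 were lower and 0 higher, with medians per mouse from -1.02 to -0.01 and *Mafa* and *Slc30a8* never detected in red. Of 9 hepatocyte genes 6 were lower and 0 higher, with a summed red signal of 1364 to 2880 units beside 4926 to 7346 for the pool. The part of these cells in the values of the cell cycle genes was not tested.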

How the data were processed

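RNA of 8 individual NOD pancreata was labeled with Cy5 and RNA of 1 pool of 8 NOD.B10 pancreata with Cy3, and both were hybridized to two-color Agilent Whole Mouse Genome arrays. Per the file headers, the authors extracted the arrays with Agilent Feature Extraction 10.7.3.1, which subtracted background, normalized the dyes and replaced weak signals by stand-in values. The deposited log10 ratios of red over green processed signal were converted to log2 and are the values reported. The deposited intensities (processed, background-subtracted and mean signals, in scanner units) gave the signals and the other normalizations. Probe positions are those deposited with mm8 coordinates, and probe sequences and a gene annotation of that build were not used here. Spots of 1 probe were averaged on each array. The brightest probes of *E2f1*, *Pcna* and *Ccnd1* had 10 spots and those of the other members 1.

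The 40 members and all gene lists were chosen with earlier results of these data known. The test covered the 28105 probes that had a symbol and reached 25 units of processed red signal on 4 or more arrays. Differences from the pool were tested with limma 3.58.1 in R 4.3.3 (one-sample moderated test, Benjamini-Hochberg adjustment over all tested probes), and the slides with a further limma contrast. Each gene was represented by its brightest probe. A gene was called at a difference of at least 2-fold and adjusted p under 0.01, the thresholds of the study. The study applied them with its own T-test and filters, and a larger share of its genes passed. The calls here are therefore not on its scale. Single members were also tested by exact sign-flip permutation (smallest two-sided p 0.00781) and slides by exact permutation of 4 against 4 arrays (smallest p 0.0286). All 40 members are described, and genes outside them are named where they passed adjusted p 0.05, at most the 3 with the largest change in each direction per list. Exceptions are *Cdkn1a* and cell type markers named for their detection in red. Some genes of these lists are not reported here by name. The fit was tested on simulated data. Alternatives were other filters, a plain statistic, array weights, a slide term, 3 other ratios or normalizations, the second brightest probe and leaving out each mouse. The arrays give no counts, so their number limits the precision. The 8 mice are separate animals. Python 3.11.15 with pandas 2.3.3, scipy 1.17.1 and matplotlib 3.10.9 was used for tables and figures. Promoters came from the RefSeq table of GRCm38.p6.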

Additional observations from a re-analysis of the deposited data

Results flagged for a closer look

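In 9 of the 40 members, 1 mouse stood apart from the other 7 by Dixon's gap criterion, which chance alone meets in about 1 in 20 groups. In 6 of the 9 the other values were mostly exactly 0, because the ratio was deposited as 0. These were *Top2a* (mouse 8, highest, log2 ratio 3.59), *Bub1* (mouse 8, highest, 1.53), *Cdc25c* (mouse 5, highest, 0.70), *Aurkb* (mouse 1, lowest, -0.091), *Bub1b* (mouse 4, lowest, -0.12) and *Kif2c* (mouse 4, lowest, -0.84). In *Ccne2*, mouse 4 was highest at 2.11 and 4 mice were at 0.

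The other two were measured genes that passed the test. In *Mcm5*, mouse 6 was lowest at 0.046 and the next mouse was at 0.42, and without mouse 6 the mean was 0.54 (limma adjusted p = 0.00111). In *Ccnd1*, mouse 1 was lowest at -0.19 and the next mouse was at 0.28, and without mouse 1 the mean was 0.39 (limma adjusted p = 0.00408).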

How the results depend on the processing

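No paired analysis was possible because the 8 mice form 1 group set against 1 pool. The median log2 ratios of the 40 members (measured or not) and of the S phase, mitotic and D cyclin members moved by less than the spread between mice in each alternative. The D cyclin median still changed sign, from 0.10 to -0.10 after median-centering and -0.037 after normexp. The number of called members, 1 with the deposited ratios, was 0 without a filter, with red detected on at least 4 arrays, with a plain statistic, after normexp with loess and with a slide term, 2 at adjusted p 0.05 and 2-fold, 4 with the ratio of processed signals and 12 after median-centering, where 12.7% and 22.4% of all tested genes were called in place of 1.69%, and ranged from 0 to 1 with 1 mouse left out. Members past adjusted p 0.05 and higher, 2 with the deposited ratios, were 8 with the ratio of processed signals, 10 after median-centering and 1 after normexp, and ranged from 1 to 2 with 1 mouse left out. Those lower, 3 with the deposited ratios, were 11 after median-centering and 5 at the second brightest probe, and ranged from 1 to 4 with 1 mouse left out. Over all tested genes, 7.01% passed higher and 14.4% lower with the deposited ratios, 19.9% and 16.8% with the ratio of processed signals, 25.3% and 19.1% after median-centering and 4.44% and 10.2% after normexp. Without the arrays of mice 5, 6 and 7, chosen after seeing the data, 0 were called, 1 was higher and 6 were lower.

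The sign of the mean differed from that of the deposited ratios in 16 of 40 members after median-centering and in 18 after normexp. Among those that passed in the new direction or had passed before, the log2 ratios after median-centering were -0.55 for *Mcm7*, 0.65 for *Ccnb1*, 2.63 for *Aurkb*, 1.17 for *Bub1b*, 1.10 for *Kif2c*, 0.72 for *Tpx2* and -0.73 for *Ccnd2*. With the ratio of processed signals they were 1.97 for *Aurkb* and 0.87 for *Bub1b*, after normexp -0.019 for *Mcm5* and 0.034 for *Foxm1*, and at the second probe -0.93 for *E2f1*. *Cdc6*, at 0 in the deposited ratios, was at 0.57 with processed signals and 1.30 after median-centering. The cause was not tested. The weak red signal limits the 21 members that were not measured.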
